A study of Mus musculus with 16 samples.

Results

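Cerebellar granule cells are small excitatory neurons and the most numerous neurons of the brain, and 9 genes known for their expression in these cells were followed here in frontal cortex and cerebellum of Upf3b-KO and Ctrl mice. The genes were Gabra6, Cbln1, Cbln3, Neurod1, Zic1, Zic2, Etv1, Fat2 and Cadps2, taken by symbol from the 55266 genes of the deposited tables, with all 40 of their transcripts among 142435. RNA-seq had been performed on bulk tissue of adult mice in 4 groups of 4 libraries: frontal cortex (FC) and cerebellum (Cere) of Upf3b-null animals and of littermate Ctrl animals. Upf3b encodes an adaptor of nonsense-mediated decay (NMD), by which cells break down certain RNAs with early stop codons, and the series asks which RNAs depend on it in each region. The null allele is carried by every cell of the animal, and strain, sex and exact age are not given in the sources used here. All levels below are counts scaled to library size (CPM) and summed over the transcripts of a gene, unless TPM, which are scaled by transcript length as well, are named.

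On GRCm39 the positions of the genes were Gabra6 at chr11:42197264-42211910 (minus strand), Cbln1 at chr8:88195033-88199261 (minus strand), Cbln3 at chr14:56116370-56121849 (minus strand), Neurod1 at chr2:79282865-79287294 (minus strand), Zic1 at chr9:91240111-91247863 (minus strand), Zic2 at chr14:122711827-122717264 (plus strand), Etv1 at chr12:38828851-38920483 (plus strand), Fat2 at chr11:55141435-55227483 (minus strand) and Cadps2 at chr6:23262103-23839546 (minus strand). Values cover their annotated exons.

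Granule cells receive mossy fibres and Golgi cell inhibition in the granular layer and send parallel fibres to Purkinje cells in the molecular layer. Their parallel fibre synapses are held together by cerebellins, secreted proteins that bridge the presynaptic and postsynaptic membranes. Their tonic inhibition uses GABA-A receptors that contain the alpha6 subunit, which is found in few other cell types. Zic and Neurod transcription factors act in granule cell progenitors and in their differentiation and stay on in the mature cells.

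Depth was 27660078 to 35238677 counts in 15 of the 16 libraries. The library of Upf3b-KO cerebellum replicate 1 held only 64981 and was left out of the comparisons, so that n is 3 in that group and 4 in the others. Upf3b itself was at 14.8 CPM in Ctrl and 0.559 in Upf3b-KO frontal cortex, and at 22.7 and 0.737 in cerebellum. Libraries of a group were very close to each other. Within groups, the median squared difference between deep libraries was 2.16 to 2.69 times that of counting alone (protein-coding genes with 200 or more summed counts), and the biological coefficient of variation estimated by edgeR was 3.87% to 3.99%. No pair agreed within sampling noise, so each library was kept as its own sample. The study describes frontal cortex and cerebellum of the same 4 animals per genotype, but the labels do not tie a library to an animal. The tests between regions and of the interaction therefore treated the libraries as independent, and p-values measure only the spread between these libraries, which may be technical. In bulk tissue, fewer cells of a type and less RNA per cell cannot be told apart.

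Ctrl cerebellum was compared with Ctrl frontal cortex to give the level of each gene in the regions. The genes were chosen as genes of cerebellar cells, so that a higher level in cerebellum does not by itself mark granule cells. The 9 Purkinje cell markers also summed to 1114 to 1133 CPM in Ctrl frontal cortex and 14315 to 14478 in Ctrl cerebellum. All 9 genes were higher in cerebellum, by over 2-fold and with an adjusted p below 0.01 (quasi-likelihood test of edgeR, adjusted by Benjamini-Hochberg for all genes tested), which is the strict rule for a called gene throughout. Of all 19831 genes tested, 8.74% were called higher in cerebellum and 16.8% lower. With an adjusted p below 0.05 and no fold limit, 35.8% were higher. The libraries of the regions did not overlap for any of the 9, where 34.5% of all genes were higher without overlap. The difference ran from 2.85-fold (Etv1) to 9288-fold (Gabra6). The latter rests on a level near 0 in frontal cortex and gives no exact ratio. Gabra6, which encodes the alpha6 subunit, was almost absent from frontal cortex: its Ctrl libraries there held 0.0300, 0, 0.116 and 0.155 CPM, 10 reads in all, against 743, 756, 749.9 and 739.9 CPM in cerebellum. Cbln3, a cerebellin that is secreted together with Cbln1, was at 0.543 ± 0.220 CPM (SD, n = 4) in frontal cortex and 1837 ± 2.34 (SD, n = 4) in cerebellum. Fat2, a giant protocadherin of parallel fibres, was at 0.142 ± 0.0427 and 213 ± 1.78 CPM (SD, n = 4 each). These 3 genes had the largest region differences of the 9.

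The other 6 genes differed less between the regions. Cbln1, the main cerebellin of parallel fibres, was at 8.49 ± 1.09 CPM in Ctrl frontal cortex and 385 ± 3.77 in Ctrl cerebellum (SD, n = 4 each). Neurod1, a basic helix-loop-helix factor of neuronal differentiation, was at 27.7 ± 1.86 CPM in frontal cortex and 556 ± 7.68 in cerebellum. The zinc finger factors Zic1 and Zic2 were at 3.15 ± 0.536 and 0.691 ± 0.224 CPM in frontal cortex, and at 175 ± 2.27 and 16.4 ± 0.610 in cerebellum. Etv1, an ETS factor also known from layer 5 neurons of the cortex, and Cadps2, a factor for the release of dense-core vesicles, were the least regional of the set, with 153 ± 1.62 and 75.4 ± 2.30 CPM in frontal cortex and 444 ± 8.48 and 316 ± 3.98 CPM in cerebellum.

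Compared per length, the 9 genes in Ctrl cerebellum ordered as Cbln3 (955 ± 5.31 TPM, SD, n = 4), Gabra6 (777 ± 8.07), Neurod1 (514 ± 8.64), Cbln1 (426 ± 6.54), Etv1 (241 ± 7.25), Cadps2 (179.7 ± 2.13), Zic1 (78.9 ± 0.728), Fat2 (37.3 ± 0.426) and Zic2 (12.2 ± 0.293). Every pair of neighbours in this order lay further apart than their SDs. The order was the same in Upf3b-KO cerebellum, where the neighbours with the smallest ratio were Neurod1 with 227 ± 2.80 TPM and Cbln1 with 211 ± 7.57 (SD, n = 3). In Ctrl frontal cortex Etv1 led with 82.5 ± 3.67 TPM, followed by Cadps2 with 41.2 ± 2.25 and Neurod1 with 24.5 ± 1.68 (SD, n = 4), while at the low end Zic2 (0.553 ± 0.267 TPM) and Cbln3 (0.270 ± 0.109), and likewise Gabra6 (0.0736 ± 0.0708) and Fat2 (0.0238 ± 0.00712), lay within the sum of their SDs.

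**Figure D1:**
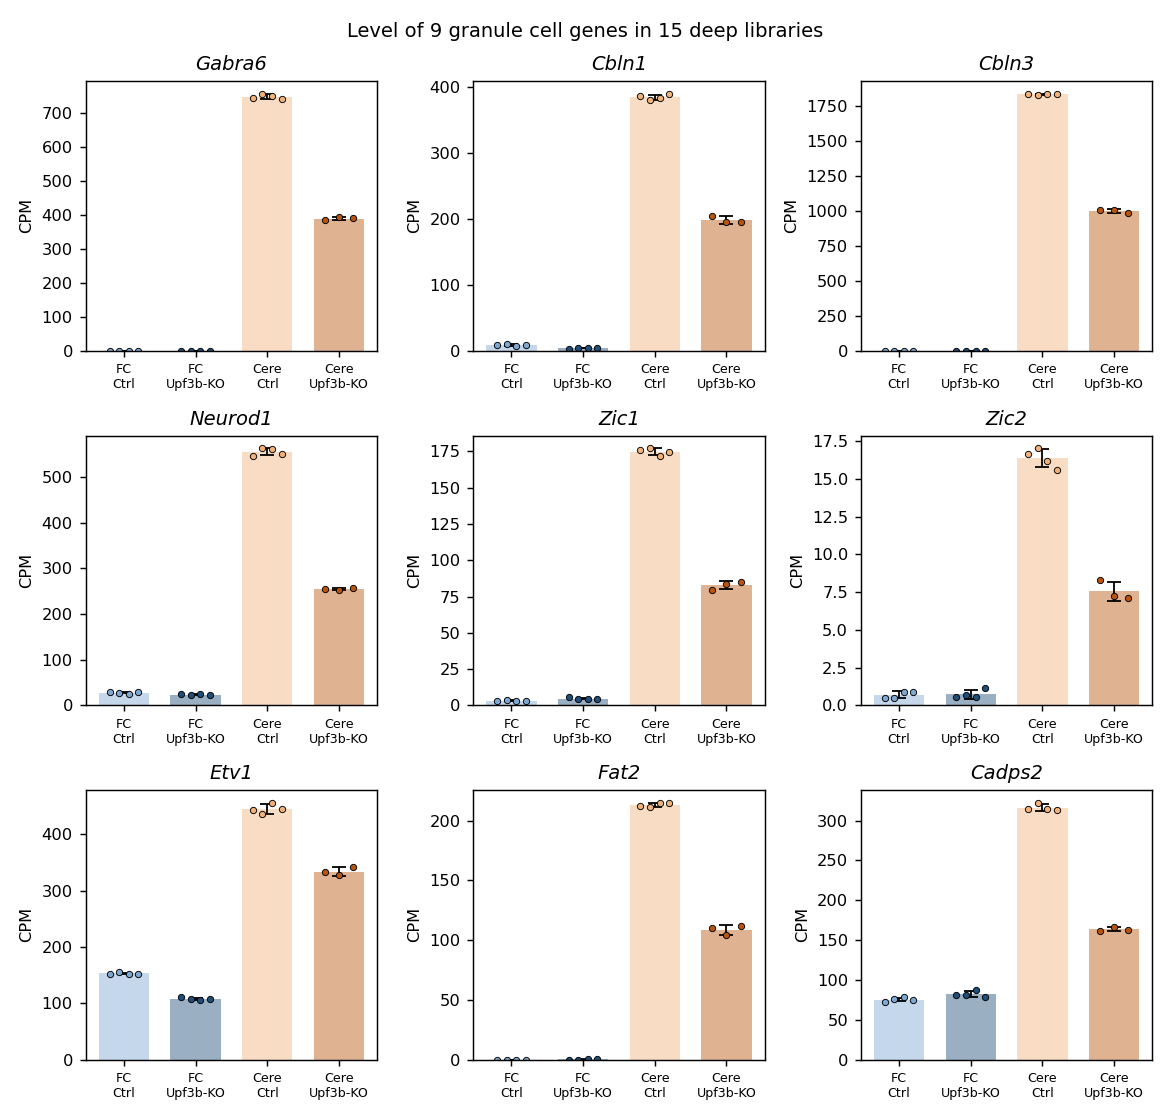
Level of the 9 genes in the 15 deep libraries, in CPM on a linear axis that starts at 0 and differs between panels. Bars are group means, error bars SDs and points single libraries. In each panel the 3 Upf3b-KO libraries of the cerebellum lie below the 4 Ctrl libraries of that region and above every library of frontal cortex.

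Promoters are shown for the pair of genes with the most regional level, since the members moved together with the genotype in cerebellum, though not in frontal cortex (below). The windows are the 120 bases upstream of the RefSeq start (GRCm38.p6, minus strand of both genes), and capitals mark TGGCA or its reverse complement TGCCA, the half-site of nuclear factor I proteins.
Gabra6, chr11:42321073-42321192: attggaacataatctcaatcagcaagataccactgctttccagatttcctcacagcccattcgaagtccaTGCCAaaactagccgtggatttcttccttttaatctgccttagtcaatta
Cbln3, chr14:55884257-55884376: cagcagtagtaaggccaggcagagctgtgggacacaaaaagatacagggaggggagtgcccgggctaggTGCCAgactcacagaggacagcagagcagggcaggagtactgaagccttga
Promoters of 7 of the 9 genes were matched by symbol in the RefSeq table. Within 250 bases upstream of the start and on both strands, TGGCA was present in 3 of the 7 genes, against 42.8% of 32851 promoters, so that its share among these genes was near that of all promoters. The E-box CAGATG was in 1 of the 7 (14.4% of all promoters), while CAGCTG (13%) and CAGCAGG (8.44%) were in 0. These are matches of letters and not binding sites.

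To ask whether these genes depend on Upf3b in the region where granule cells are, Upf3b-KO cerebellum was compared with Ctrl cerebellum. All 9 genes were lower in Upf3b-KO, 9 of 9 at an adjusted p under 0.05, where 31.3% of all 17785 genes tested were lower by the same rule. The 3 Upf3b-KO libraries lay below the 4 Ctrl libraries for every one of the 9, as they did for 27% of all genes, while for 36.4% they lay above. In 8 of the genes the level was 45.9% to 54.5% of Ctrl. Etv1 fell less and kept 75.1% of its Ctrl level. The median log2 fold change of the 9 was −1.01, while that of all genes was 0.01.

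The strict rule split the set near its own limit. Neurod1, Zic2, Zic1, Fat2, Cbln1 and Cadps2 were called lower (6 of 9, against 2.86% of all genes). Cadps2 (log2 fold change −1.001) and Cbln1 (−1.01) lay just inside the 2-fold limit, and Gabra6 (−0.99) and Cbln3 (−0.93) just outside it. Scaling by library totals without the 20 most abundant features in place of TMM (trimmed mean of M values) factors gave 3 past the limit, and leaving out Upf3b-KO replicate 3 or 4 gave 4. The 9 calls at an adjusted p under 0.05 held under each of the alternatives that were run.

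Among the genes of the synapse, Gabra6 was at 743, 756, 749.9 and 739.9 CPM in the Ctrl libraries and at 384, 393 and 391 in the Upf3b-KO libraries. The groups were apart by far more than their spread (log2 fold change −0.99, SE 0.015, adjusted p = 3.54e-20). Cbln1 was at 386, 381, 384 and 390.1 CPM in Ctrl and at 205, 195 and 196 in Upf3b-KO. Its log2 fold change was −1.01 (SE 0.020, adjusted p = 1.76e-18). Cbln3, the most abundant of the 9, was at 1836, 1835, 1840.1 and 1837 CPM in Ctrl and at 1008, 1008 and 987 in Upf3b-KO. This fall of 0.93 on the log2 scale (SE 0.012, adjusted p = 1.65e-21) was smaller than those of Gabra6 and Cbln1, and its 95% interval (−0.95 to −0.90) did not reach those of Gabra6 (−1.02 to −0.96) and Cbln1 (−1.05 to −0.97).

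The genes of secretion and adhesion fell by a similar factor. Cadps2 was at 315, 322, 315 and 314 CPM in Ctrl and at 162, 166 and 162 in Upf3b-KO (log2 fold change −1.001, SE 0.020, adjusted p = 1.34e-18). Fat2 was at 212, 211, 215 and 215 CPM in Ctrl and at 110.3, 104 and 112 in Upf3b-KO (log2 fold change −1.02, SE 0.025, adjusted p = 4.43e-17). Neither gene overlapped between genotypes.

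Of the transcription factors, Neurod1, Zic2 and Zic1 fell most, with 95% intervals that overlapped. Neurod1 was at 547, 563, 561 and 552 CPM in Ctrl and at 256, 252 and 258 in Upf3b-KO (log2 fold change −1.17, SE 0.017, adjusted p = 2.11e-20). Zic1 was at 176, 177, 172 and 175 CPM in Ctrl and at 79.8, 83.6 and 85.3 in Upf3b-KO (log2 fold change −1.13, SE 0.026). Zic2, the scarcest of the 9, was at 16.7, 17.0, 16.2 and 15.6 CPM in Ctrl and at 8.27, 7.24 and 7.14 in Upf3b-KO, and its wider interval (log2 fold change −1.17, 95% interval −1.33 to −1.01) overlapped those of Zic1 and Neurod1. Etv1 was at 443, 435, 456 and 444 CPM in Ctrl and at 332, 328 and 342 in Upf3b-KO. Its log2 fold change of −0.46 (95% interval −0.50 to −0.42, adjusted p = 1.15e-13) lay outside the interval of every other member.

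Some exons of 6 of the 9 genes overlap exons of another annotated gene, and strand use in counting was not given in the sources used here, so that reads of such a pair cannot be told apart. The partners were Gm19872 for Cbln1, Khnyn for Cbln3, Cerkl for Neurod1 (with Gm54165), Zic4 for Zic1, 2610035F20Rik for Zic2 and Gm74198 for Fat2. In Ctrl cerebellum Khnyn was at 75.3 CPM beside the 1837 of Cbln3, and Gm19872 at 61.1 beside the 385 of Cbln1. Zic4 was at 36.5 CPM beside the 175 of Zic1, 2610035F20Rik at 4.601 beside the 16.4 of Zic2, and Cerkl at 3.61 beside the 556 of Neurod1. In Ctrl frontal cortex the partners weighed more. Khnyn was at 23.7 CPM there beside the 0.543 of Cbln3, and Zic4 at 2.53 beside the 3.15 of Zic1. Gm19872 was at 3.20 beside the 8.49 of Cbln1, 2610035F20Rik at 0.501 beside the 0.691 of Zic2, and Cerkl at 2.71 beside the 27.7 of Neurod1. Frontal cortex and interaction values of these members are therefore more open to this limit than those of cerebellum. Gm54165 and Gm74198 had no value in the tables used here. Gabra6, Etv1 and Cadps2 had no such overlap.

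A wider list of 30 genes expressed by mature granule cells was lower as a group as well. In Upf3b-KO cerebellum 27 of the 30 fell, 1 rose and 2 did not pass an adjusted p of 0.05 (31.3% of all genes lower, 33.1% higher), with a median log2 fold change of −0.76. By the strict rule 5 were lower and 1 higher (2.86% of all genes lower, 10.3% higher). The neurotrophin Ntf3 fell from 6.83 to 1.80 CPM (log2 fold change −1.98), Tiam1, an activator of Rac, from 100 to 40.8 (−1.35), and the homeobox gene Barhl2 from 45.1 to 19.9 (−1.23). The potassium channel gene Kcnk9 rose from 20.1 to 47.8 CPM (log2 fold change 1.19). Chn2 went from 1131 to 611 CPM, Calb2 from 568 to 283, and the vesicular glutamate transporter Slc17a7 from 457 to 289. The nuclear factor I genes Nfia, Nfib and Nfix, whose products are known regulators of Gabra6, fell by 0.54, 0.73 and 0.84 on the log2 scale. Cntn1 (636 and 655 CPM in Ctrl and Upf3b-KO) and Svop (116 and 116) did not pass the test. Genes of granule cell progenitors gave no shared direction. Of 7 tested, 3 fell, 1 rose (Ccnd2, from 8.03 to 15.4 CPM) and 3 did not pass, and Atoh1, the defining factor of these progenitors, was at 0.00904 CPM in Ctrl and 0.0196 in Upf3b-KO.

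Genes whose products work with the 9 proteins moved in both directions. Of 25, 18 fell, 6 rose and 1 did not pass an adjusted p of 0.05, where 31.3% of all genes fell and 33.1% rose. Of the neurexin genes, Nrxn2 fell by 0.38 and Nrxn3 by 0.60 on the log2 scale. Of the GABA-A receptor subunits that assemble with alpha6, Gabrb2 fell by 0.86 (313 to 178 CPM) and Gabrd by 0.80 (134 to 80.0 CPM) on the log2 scale. Relatives of the members were among those that rose. Cbln2 went from 0.189 to 16.6 CPM (log2 fold change 6.37) and Cbln4 from 0.730 to 20.4 CPM (4.76), opposite to Cbln1 and Cbln3. Cadps, the paralog of Cadps2, rose from 81.4 to 146 CPM (0.80). Zic5 and Zic4, of the same family as Zic1 and Zic2, fell by 0.98 and 0.76 on the log2 scale.

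Markers of other cell types moved with the genotype in the same cerebellar libraries. Counts of markers that fell or rose are at an adjusted p under 0.05, by which 31.3% of all genes were lower and 33.1% higher. All 9 Purkinje cell markers fell (median log2 fold change −1.39), with Pcp2 from 385 to 147 CPM and Car8 from 3198 to 1115, and their summed level was 14315 to 14478 CPM in Ctrl and 5978 to 6003 in Upf3b-KO libraries. All 6 oligodendrocyte markers rose, with a summed level of 6208 to 6328 CPM in Ctrl and 14389.9 to 14493 in Upf3b-KO. Of 10 markers of deep nuclei, brainstem and midbrain neurons, all 9 tested rose, and their sum went from between 22.8 and 23.5 CPM to between 289 and 297. In this list Chat and Slc18a3, which mark cholinergic neurons, were at 0 in every Ctrl library and at 13.6 and 14.8 CPM in Upf3b-KO, Slc17a6, the glutamate transporter of deep nuclear and brainstem neurons, went from 9.36 to 156 CPM, and Hoxb5, a hindbrain position gene, from 0.0418 to 28.1. All 6 choroid plexus markers rose, from a sum of 25.04 to 28.8 CPM in Ctrl to 1369 to 1391 in Upf3b-KO. Of 8 markers of cerebellar interneurons and unipolar brush cells, 5 fell and 3 rose, and their sum went from between 1523 and 1535 CPM to between 1192 and 1200.0. Kit, a marker of molecular layer interneurons, went from 563 to 326 CPM, while Slc6a5, the transporter of glycinergic neurons, went from 35.0 to 176. Of 8 Bergmann glia and astrocyte markers 5 fell and 3 rose. The part of these other cell types in the lower level of the 9 granule cell genes was not tested. How the tissue was dissected is not given in the sources used here, and a difference in the pieces taken cannot be told apart from the genotype in any of the genotype comparisons.

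**Figure D2:**
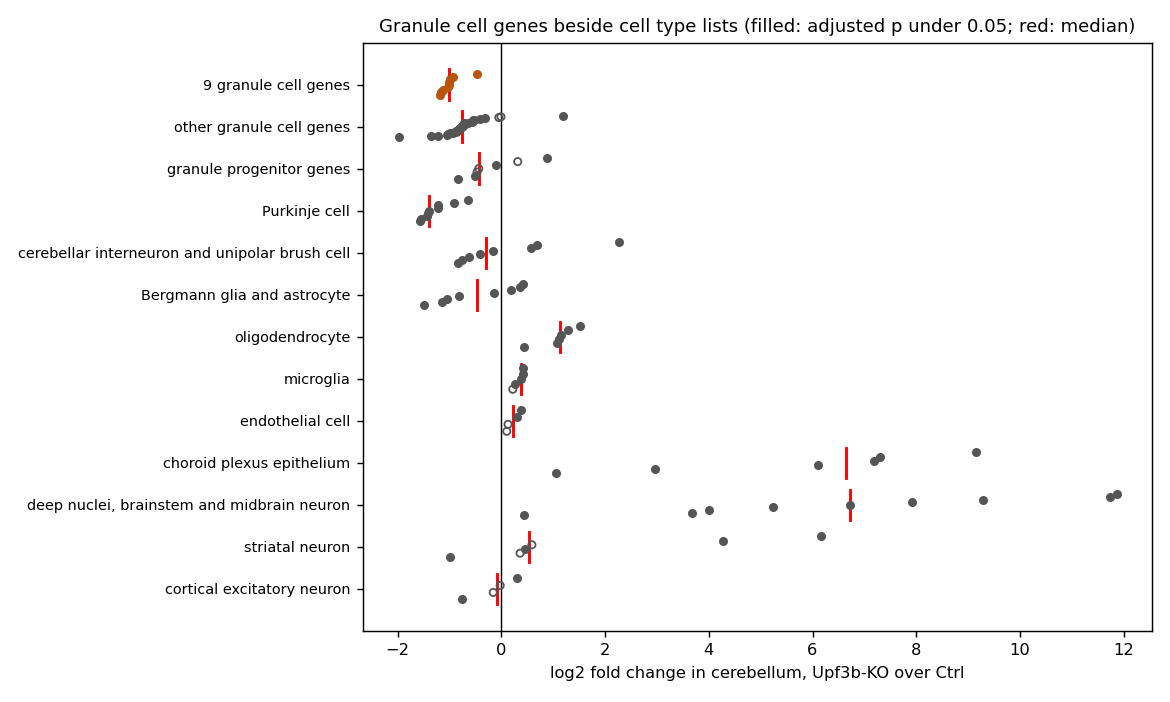
Log2 fold change in cerebellum, Upf3b-KO over Ctrl, of each tested gene of the 9 granule cell genes and of 12 other lists. Filled points have an adjusted p under 0.05, open points do not, and red bars are list medians. The 9 genes lie between −1.17 and −0.46, Purkinje cell markers around a median of −1.39, and brainstem and choroid plexus markers at medians of 6.72 and 6.64.

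In frontal cortex, 7 of the 9 genes had enough counts to be tested, and they did not move together. Etv1, Cbln1 and Neurod1 fell and Zic1 rose at an adjusted p under 0.05, while Cadps2, Cbln3 and Zic2 did not pass (25.3% of 18218 genes lower and 28% higher). Cbln1 was the only 1 of the 7 called by the strict rule, at 8.44, 9.88, 7.22 and 8.41 CPM in Ctrl and 3.48, 4.38, 3.86 and 4.32 in Upf3b-KO (log2 fold change −1.16, SE 0.12, adjusted p = 2.20e-08, where 1.06% of genes were called lower and 9.16% higher). Its level in Upf3b-KO was 47.2% of Ctrl in frontal cortex and 51.6% in cerebellum. Etv1 was at 152, 155, 152 and 152 CPM in Ctrl and 111, 108, 107 and 107 in Upf3b-KO, with no overlap (log2 fold change −0.57, SE 0.021, adjusted p = 1.99e-15). Neurod1 went from 27.7 ± 1.86 to 23.6 ± 1.31 CPM (SD, n = 4), a change of −0.30 on the log2 scale (SE 0.056, adjusted p = 8.30e-05) that passed although its highest Upf3b-KO library (25.4 CPM) was above its lowest Ctrl library (25.2).

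Zic1 was the member that rose in frontal cortex, from 2.61, 3.88, 2.96 and 3.17 CPM in Ctrl to 5.48, 4.41, 4.12 and 4.59 in Upf3b-KO (log2 fold change 0.49, SE 0.14, adjusted p = 0.00564). Every Upf3b-KO library was above every Ctrl library. Cadps2 was at 75.4 ± 2.30 and 82.4 ± 3.44 CPM (SD, n = 4 each), with a log2 fold change of 0.05 (95% interval −0.01 to 0.11). Its libraries did not overlap in CPM, yet it did not pass. It passed with library totals without the 20 most abundant features in place of TMM factors (log2 fold change 0.12, adjusted p = 0.00314). Cbln3 (0.543 and 0.861 CPM) and Zic2 (0.691 and 0.738 CPM) were near the limit of detection, with 95% intervals of −0.09 to 1.26 and −0.65 to 0.69. Cbln3 passed when all 15 deep libraries were in 1 fit (log2 fold change 0.58, adjusted p = 0.0168). Gabra6 and Fat2 did not pass the filter on low counts, with 8 and 33 summed reads in Upf3b-KO and 10 and 19 in Ctrl.

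In the frontal cortex libraries all 6 markers of striatal neurons rose, from a sum of 136 to 145 CPM in Ctrl to 706 to 717 in Upf3b-KO, and all 6 choroid plexus markers, from 20.8 to 22.1 CPM to 2156 to 2209. All 8 markers of Bergmann glia and astrocytes fell in that region, and all 6 of oligodendrocytes rose. Marker counts of this region are at an adjusted p under 0.05, by which 25.3% of all genes fell and 28% rose. Of 8 markers of cortical excitatory neurons 4 fell, 2 rose and 2 did not pass, and their sum went from between 506 and 521 CPM to between 475 and 481. Fezf2, a factor of deep layer neurons, fell from 33.2 to 16.8 CPM. The sum of the deep nuclei, brainstem and midbrain list went from between 209.8 and 217 CPM to between 146 and 160.3, most of it Sst (182 and 122 CPM), which cortical interneurons express as well. Their part in the changes of Zic1, Cbln1, Etv1 and Neurod1 was not tested. Of the 30 other granule cell genes 26 were tested in frontal cortex, where 15 fell, 5 rose and 6 did not pass an adjusted p of 0.05 (25.3% of all genes fell and 28% rose).

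**Figure D3:**
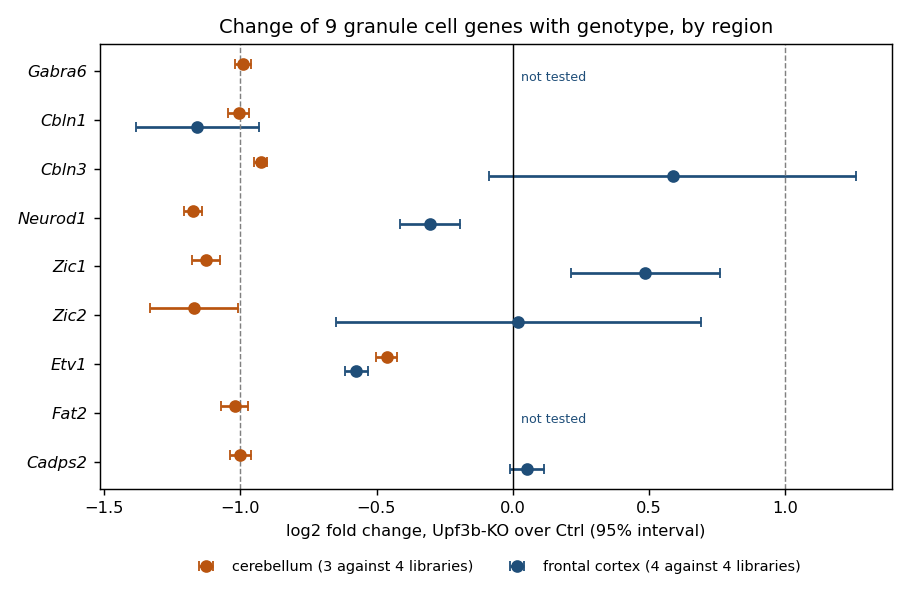
Log2 fold change of the 9 genes, Upf3b-KO over Ctrl, in cerebellum (3 against 4 libraries) and frontal cortex (4 against 4), with 95% intervals from the fit and dashed lines at a 2-fold change. In cerebellum 8 genes sit near −1 and Etv1 at −0.46, while in frontal cortex the points spread from −1.16 (Cbln1) to 0.59 (Cbln3).

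Whether the genotype effect differed between the regions was tested as the region by genotype interaction over the 15 deep libraries. Of the 7 genes with enough counts for a test in each region, the effect was lower in cerebellum than in frontal cortex at an adjusted p under 0.05 for 5 (23.8% of 19831 genes lower, 24.2% higher), and for 4 of these, Zic1, Cbln3, Zic2 and Cadps2, by the strict rule (3.04% of genes lower, 6.36% higher). Zic2 lost the strict call without Upf3b-KO frontal cortex replicate 4 (difference −0.89). The difference of the log2 fold changes was −1.63 for Zic1 (SE 0.11, adjusted p = 1.86e-12), whose level rose in frontal cortex and fell in cerebellum, −1.06 for Cadps2 (SE 0.037, adjusted p = 4.16e-18) and −0.88 for Neurod1 (SE 0.050, adjusted p = 8.56e-14). It was −1.52 for Cbln3 and −1.20 for Zic2, which rest on group means under 1 CPM in frontal cortex. Fat2 (−1.80) and Gabra6 (−0.69, 95% interval −2.09 to 0.71) entered this fit only through their counts in cerebellum, and their values are no measure of a difference between the regions. Etv1 was the exception in the other direction: its fall was slightly smaller in cerebellum (difference 0.10, SE 0.028, adjusted p = 0.00452). For Cbln1 the difference was 0.14 (95% interval −0.04 to 0.32, adjusted p = 0.219).

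Within Upf3b-KO mice all 9 genes were still higher in cerebellum than in frontal cortex at an adjusted p under 0.05 (33.7% of genes higher, 34.4% lower), and 8 by the strict rule (6.83%). The regions did not overlap for any of the 9, as for 34.4% of genes that were higher. Cadps2 was 1.97-fold higher, where it had been 4.11-fold higher in Ctrl, and Neurod1 10.7-fold, where it had been 19.7-fold. The ratio of Etv1 was 3.06 in Upf3b-KO and 2.85 in Ctrl. Of the 30 other granule cell genes, 20 were called higher and 2 lower in Ctrl cerebellum than in Ctrl frontal cortex (8.74% and 16.8% of all genes). In Upf3b-KO mice 18 were called higher and 3 lower (6.83% and 15% of all genes). Barhl2 (0.0521 and 45.1 CPM in the Ctrl regions) and En2 (0.110 and 30.3) had the largest differences of those read in frontal cortex, and Uncx, listed at 0 there in every Ctrl library, was at 20.3 CPM in Ctrl cerebellum. The 2 called lower in Ctrl were Slc17a7 (1269.7 and 457 CPM) and Bdnf (39.2 and 19.3), with Ntf3 as the third in Upf3b-KO (5.49 and 1.80 CPM). In the interaction, 6 of these 30 were called lower and 1 higher (3.04% and 6.36% of all genes). Among those lower were Ntf3 (difference −1.67), Meis1 (−1.40) and Gabrd (−1.35), and Kcnk9 was the gene that was higher (2.03). The lowest difference in the list was −3.64. These counts cover all 30, of which 26 were tested within frontal cortex. The others had too few counts there, and their values are no measure of a difference between the regions.

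The 40 transcripts of the 9 genes comprised 30 annotated as protein coding, 6 with no defined coding sequence and 4 with a retained intron. A downstream exon junction (dEJ), an exon junction at least 50 nt after the stop codon that marks candidate NMD targets, was present in 0 of the 27 transcripts with a complete coding end. In Upf3b-KO cerebellum 33 of the 40 were tested. At an adjusted p under 0.05, 22 were lower and the other 11 did not pass (10.3% of 44388 transcripts lower), and 9 were lower by the strict rule (1.31% of transcripts lower, 3.45% higher). The genotypes did not overlap for 24 of the 33 (16.5% of transcripts lower without overlap). In frontal cortex 21 were tested, of which 5 were lower and 1 higher at an adjusted p under 0.05 (7.68% and 8.67% of transcripts), and 7 did not overlap, 6 lower and 1 higher (8.09% of transcripts lower and 15.8% higher without overlap). Between the Ctrl regions 34 were tested, and 22 were called higher in cerebellum (5% of 53206 transcripts higher, 8.32% lower). The regions did not overlap for 29 of them (20% of transcripts higher and 16.8% lower without overlap). Neurod1 and Cbln3 were each read as a single transcript, and in Ctrl cerebellum Zic1-201 held 99.6% of Zic1 and Zic2-201 99.4% of Zic2. In Ctrl frontal cortex, where both genes were low, these shares were 83.6% and 96.8%. The transcripts Cbln1-202, Cbln1-203 and Cbln1-201 held 52.1%, 35.0% and 12.9% of Cbln1 in Ctrl cerebellum and 50.7%, 35.2% and 14.1% in Upf3b-KO, so that their shares were within the spread between libraries. The estimator divides reads between transcripts that share exons, and values of single transcripts varied more than those of genes.

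The transcripts of Etv1 did not all fall by the same factor. Etv1-212, annotated as a retained-intron transcript with no coding sequence, was at 154, 143, 162 and 139 CPM in Ctrl cerebellum and at 140, 145 and 148 in Upf3b-KO. The groups overlapped (log2 fold change −0.05, SE 0.055, adjusted p = 0.587). The coding transcripts Etv1-202, Etv1-201, Etv1-203 and Etv1-210 fell by 0.49, 0.56, 0.56 and 0.88 on the log2 scale, without overlap between genotypes. The share of Etv1 reads given to Etv1-212 went from 33.6% ± 1.88 (SD, n = 4) to 43.2% ± 1.09 (SD, n = 3) and did not overlap between genotypes. In frontal cortex Etv1-212 fell as well, from 70.5 ± 3.89 to 57.0 ± 3.76 CPM (log2 fold change −0.37, adjusted p = 0.0034), and its share was 46.1% ± 2.51 in Ctrl and 52.7% ± 2.85 in Upf3b-KO (SD, n = 4 each), with overlapping libraries. Etv1-210 fell from 8.88 ± 2.05 to 3.95 ± 1.06 CPM there and was the only member transcript called in that region (0.463% of 42318 transcripts lower, 2.76% higher), with an adjusted p of 0.00981 that was lost on leaving out any of 6 of the 8 libraries.

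Gabra6 had 3 coding transcripts, of which Gabra6-203 held most reads. It was at 609, 638, 633 and 625 CPM in Ctrl cerebellum and at 337, 343 and 341 in Upf3b-KO (log2 fold change −0.88, SE 0.020). Gabra6-201 went from 89.0 ± 8.43 to 35.7 ± 1.65 CPM and Gabra6-202 from 31.9 ± 1.75 to 13.5 ± 0.653 (SD, n = 4 and 3), with log2 fold changes of −1.32 and −1.25, and both were called. Their 95% intervals did not reach that of Gabra6-203. Fat2-202, with 191 to 205 CPM in Ctrl and 79.9 to 104 in Upf3b-KO, was called lower. Fat2-201 could not be read in the same way, since the estimator placed 0 to 32.0 CPM in it among the 3 Upf3b-KO libraries.

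For Cadps2 the main transcript, Cadps2-209, was at 202, 229, 222 and 236 CPM in Ctrl cerebellum and at 106, 101 and 109 in Upf3b-KO (log2 fold change −1.08, SE 0.057, adjusted p = 1.76e-05), and in frontal cortex it rose from 51.6 ± 2.25 to 60.6 ± 1.26 CPM (SD, n = 4; log2 fold change 0.17, adjusted p = 0.0173). Cadps2-205 fell from 32.8 ± 4.09 to 14.2 ± 3.52 CPM in cerebellum and was called. Cadps2-201 was listed at 0 in all 4 Ctrl libraries of frontal cortex and at 20.2 to 54.99 CPM in Ctrl cerebellum. It did not differ beyond its spread between genotypes in cerebellum (36.6 ± 15.3 and 32.3 ± 9.21 CPM, adjusted p = 0.782).

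**Figure D4:**
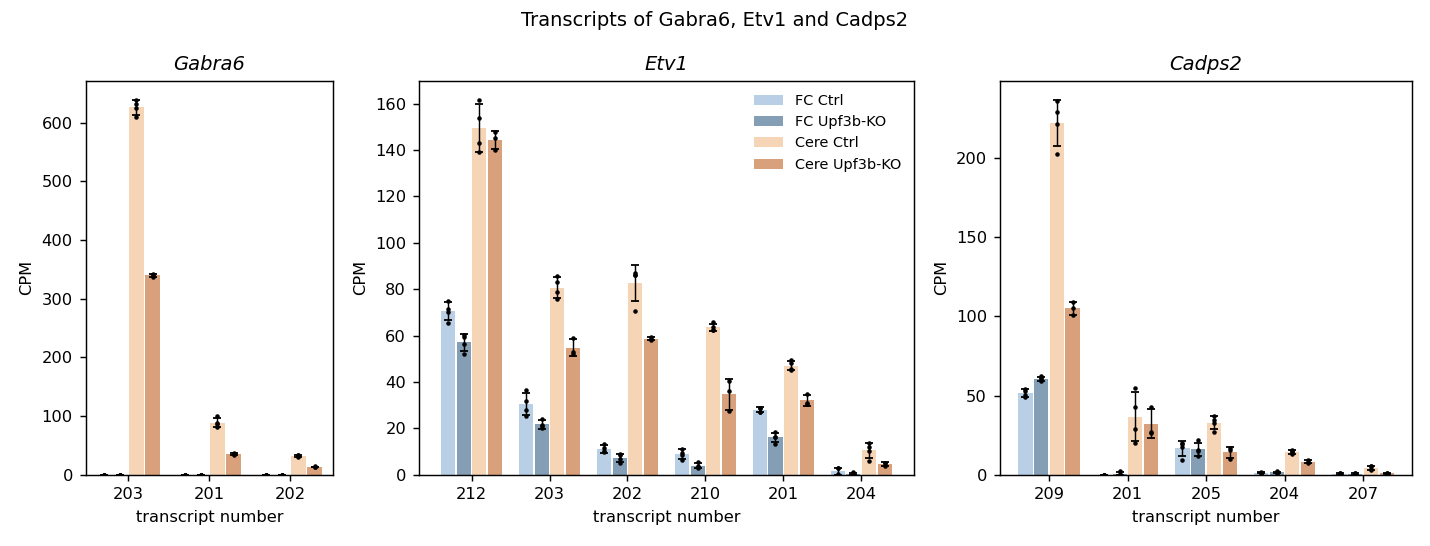
Level of the main transcripts of Gabra6, Etv1 and Cadps2 in CPM, with axes that start at 0. Bars are means of the deep libraries of a group, error bars SDs and points libraries. Etv1-212 is at 149 CPM in Ctrl and 144 in Upf3b-KO cerebellum, while Gabra6-203 goes from 626 to 340 and Cadps2-209 from 222 to 105.1.

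Transcripts of these 3 genes differ by short coding segments, which are shown because they separate the transcripts compared above. The segments were chosen after their values were seen, all are a multiple of 3 nt, and no test was run on them. They are given as spliced RNA in the sense of the gene (letters as DNA, positions on GRCm39), with the segment in capitals and 15 nt of each neighbouring exon in lower case.
Gabra6, chr11:42208576-42208605, in Gabra6-203 and Gabra6-202: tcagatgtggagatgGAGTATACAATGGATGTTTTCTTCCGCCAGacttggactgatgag
Etv1, chr12:38843170-38843223, skipped in Etv1-210 and Etv1-206: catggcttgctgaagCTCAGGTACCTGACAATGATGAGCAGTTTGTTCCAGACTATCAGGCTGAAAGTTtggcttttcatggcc
Cadps2, chr6:23328782-23328901, in Cadps2-209 and Cadps2-201: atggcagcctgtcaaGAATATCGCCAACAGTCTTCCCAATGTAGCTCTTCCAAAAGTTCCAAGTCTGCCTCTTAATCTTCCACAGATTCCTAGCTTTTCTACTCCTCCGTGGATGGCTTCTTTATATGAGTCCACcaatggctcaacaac
Shares are of the reads assigned to transcripts at 1 CPM or more that span the segment. They are not scaled by transcript length and so are not shares of RNA molecules. Transcripts with the 30-nt segment of Gabra6 held 88.1% ± 1.15 of these reads in Ctrl and 90.8% ± 0.321 in Upf3b-KO cerebellum (SD, n = 4 and 3). For the 54-nt segment of Etv1 the share was 84.5% ± 0.358 in Ctrl cerebellum, 89.1% ± 1.85 in Upf3b-KO cerebellum and 93.3% ± 1.57 in Ctrl frontal cortex. For the 120-nt segment of Cadps2 it was 69.9% ± 4.598 in Ctrl frontal cortex and 86.7% ± 1.92 in Ctrl cerebellum. In the same regions of Upf3b-KO it was 76.5% ± 2.61 and 89.3% ± 2.14. For the segments of Etv1 and Cadps2, the Ctrl libraries of the regions did not overlap. A further segment of 69 nt in Etv1 had a share of 79.6% to 83.4% in the means of the 4 groups. Etv1-212, which has no coding sequence, holds the sequence of both Etv1 segments and is counted in these shares. Among coding transcripts alone, a count added after the data were seen, the 54-nt segment was in 76.6% ± 0.353 in Ctrl and 80.7% ± 2.89 in Upf3b-KO cerebellum and in 87.5% ± 3.28 in Ctrl frontal cortex, and the 69-nt segment in 56.1% to 71.6%.

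**Figure D5:**
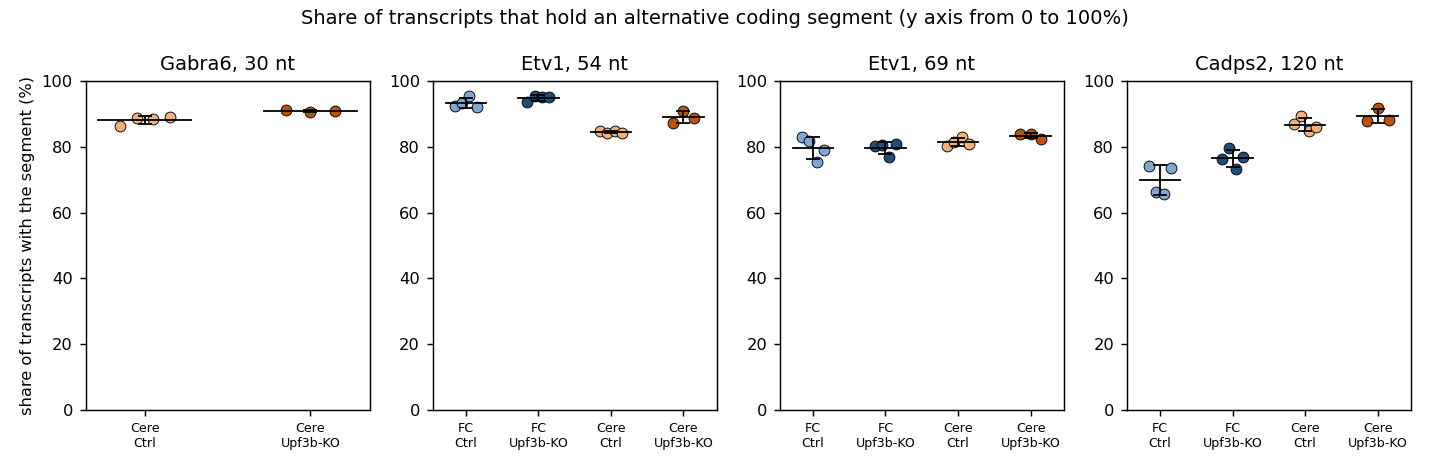
Share of reads of Gabra6, Etv1 and Cadps2 assigned to transcripts with an alternative coding segment. Values are percent of the reads of transcripts that span it, Etv1-212 included, with no scaling by transcript length. Points are deep libraries, long bars means and error bars SDs. The 54-nt segment of Etv1 is at 84.5% in Ctrl cerebellum and 93.3% in Ctrl frontal cortex, and the 120-nt segment of Cadps2 at 86.7% and 69.9%.

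Genes most like the 9 in level were sought as a description, by Pearson's r of log2(CPM + 1) with the mean of the 9, among 9936 genes at 10 CPM or more in Ctrl cerebellum. Over the 7 deep cerebellar libraries, which form 2 tight groups, the 5 with the highest r (over 0.999) were Itm2b, Car8, Rgs8, Cirbp and Diras2, and 897 genes exceeded 0.99. Itm2b went from 2525 to 1455 CPM between the genotypes, Diras2 from 1057 to 581, and Car8 and Rgs8 are on the list of Purkinje cell markers. Over all 15 deep libraries the 5 were Ppp1r17, Sorl1, Uncx, Pcp2 and Lhx5, with 228 genes over 0.99. Ppp1r17 (0.234 CPM in Ctrl frontal cortex, 527 in Ctrl and 187 in Upf3b-KO cerebellum) and Pcp2 are Purkinje cell markers as well, and Uncx is on the wider granule cell list. These points share libraries and depth.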

How the data were processed

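Bulk RNA-seq of 16 mouse tissue libraries (NEBNext rRNA depletion, SMART-Seq v4 PLUS, paired-end reads) had been aligned by the authors with STAR 2.5.2b to GRCm39 with Ensembl 105, and the deposited values are RSEM expected counts per transcript, not normalized. Whether counting used strand is not given in the sources used here. Estimated counts were rounded and summed per gene by the annotation of GENCODE vM39, which matched 141102 of 142435 transcripts. CPM are counts over library totals. Tests used edgeR 4.0.16 quasi-likelihood fits in R 4.3.3 with TMM factors and filterByExpr (minimum count 10, minimum total 15), over all genes or transcripts, with Benjamini-Hochberg adjustment. Region and interaction tests used the 15 deep libraries in 1 fit, and genotype was fitted within a region. Fold changes from the fit include the TMM factors, so they differ slightly from ratios of CPM. Called means an adjusted p under 0.01 and over 2-fold. Intervals are 1.96 SE to either side of the estimate. The scripts were tested on simulated data, where all 200 changed features were recovered in each comparison with at most 1 false call. Depth was 27660078 to 35238677 counts, so that 3 counts equal 0.0851 to 0.108 CPM, and counting intervals cover counting error only. Alternatives were DESeq2 1.42.0, other scalings, filters, thresholds and designs, a replicate block, and leaving out each library. The genes named are the 9 members, their transcripts at 1 CPM or more, and genes of the lists. Members and lists were chosen with earlier results of these data known. Other genes given with values, and the coding segments, were chosen after their values were seen.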

Additional observations from a re-analysis of the deposited data

Results flagged for a closer look

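In 27 groups of 4 libraries, 1 library stood apart from the rest by Dixon's test in 3, where chance gives about 1 in 20. They were Zic2 in Upf3b-KO frontal cortex (1.17 CPM), Etv1 in Ctrl frontal cortex (155 CPM) and Cadps2 in Ctrl cerebellum (322 CPM).

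The genotype effect differed between the regions for 6 of the 7 genes that could be tested in each region, by the interaction term of edgeR at an adjusted p under 0.05, where 23.8% of all genes were lower and 24.2% higher by the same rule. It is given as log2 fold change in cerebellum minus that in frontal cortex. The difference was −1.52 for Cbln3, −0.88 for Neurod1, −1.63 for Zic1, −1.20 for Zic2, −1.06 for Cadps2 and 0.10 for Etv1. Fat2 also passed (−1.80), but it was too low in frontal cortex to be tested there and is no measure of a difference between the regions.

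The library of Upf3b-KO cerebellum replicate 1, with 64981 counts, was used in no comparison of the report. The 9 genes had 162 counts in it, or 2493 CPM with a 95% counting interval of 2124 to 2908, beside 2536 to 2546 CPM in the 3 deep libraries of its group and 4675 to 4708 in Ctrl. In it 8 of the 9 genes lay below every Ctrl library, and for 4 the whole interval did.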

How the results depend on the processing

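Of 758 gene values under the alternatives, 752 kept their direction and their side of an adjusted p of 0.05, among them all 144 for genotype in cerebellum. By the strict rule, which adds the 2-fold limit, members changed sides there: 5 were called lower with DESeq2, 4 with a minimum count of 50, 4 with the shallow library and 7 with all 15 deep libraries in 1 fit. Zic2 in frontal cortex changed sign on leaving out single libraries (log2 fold change −0.30 to 0.17). Cbln3 in frontal cortex passed with all 15 libraries in 1 fit (0.58, adjusted p = 0.0168), Cadps2 with library totals without the 20 most abundant features (0.12, adjusted p = 0.00314), and the interaction of Cbln1 without Ctrl frontal cortex replicate 3 (0.21, adjusted p = 0.0353); the cause was not tested.

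With those library totals 3 members were called lower in cerebellum (6 in the report), 2 were higher in frontal cortex at an adjusted p under 0.05 (1 in the report; 2 also with all 15 libraries in 1 fit), and 0 member transcripts were called lower in frontal cortex (1 in the report; 0 also with no filter and with the replicate block). With an adjusted p under 0.05 and no fold limit, frontal cortex had 1 member higher and 3 lower, the interaction 1 higher, and member transcripts 22 lower in cerebellum and 1 higher and 5 lower in frontal cortex. With a 1.5-fold limit member transcripts lower were 16 in cerebellum and 2 in frontal cortex. Member transcripts higher in frontal cortex at an adjusted p under 0.05 (1 in the report) were 2 with DESeq2, 0 with no filter, 0 with the replicate block and 2 with all 15 libraries, where 8 were lower (5 in the report).

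Leaving out single libraries gave 4 to 6 members called lower in cerebellum (4 without Upf3b-KO replicate 3 or 4), 1 to 2 higher in the interaction at an adjusted p under 0.05 and 4 to 5 called lower (Fat2 included; Zic2 at −0.89 without Upf3b-KO frontal cortex replicate 4), 0 to 2 transcripts higher in frontal cortex at that p and 0 to 1 called lower. Sign changes over these were Cadps2-201 (−0.45 to 0.071) and Fat2-201 (−0.53 to 0.71) in cerebellum, and Cadps2-204 (−0.020 to 0.37), Cadps2-205 (−0.30 to 0.0030), Cadps2-207 (−0.72 to 0.41) and Zic2-201 (−0.24 to 0.24) in frontal cortex.

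No pairing of the samples by replicate number was detected. Same-numbered libraries of 2 groups correlated at −0.15 to 0.055, and libraries with different numbers at −0.10 to 0.13. Shared animals are not excluded by this, since the spread within groups was small and may be technical. With the replicate block, counts of members called were as in the report (6 lower in cerebellum), 6 transcripts were called lower in cerebellum, and the log2 fold change of Cadps2-201 (0.11) and Fat2-201 (−0.63) in cerebellum and of Cadps2-206 between Ctrl regions (0.78) changed sign.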
